A study of Mus musculus with 8 samples.

Results

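Interleukin-2 (Il2) is the growth factor that T cells make for themselves, and the set described here consists of Il2, the genes of the 3 chains of its receptor (Il2ra, Il2rb and Il2rg) and Il7r, the receptor gene for interleukin-7. These 5 genes were chosen by name, with earlier results of these data known, and matched to the gene symbols in the platform annotation. In all, 7 probe sets carried 1 of these symbols as their single symbol, and they covered 4 of the 5 genes: 1 for Il2 and 2 each for Il2ra, Il2rb and Il7r. No probe set had Il2rg as its single symbol in the table used, so that chain was not analysed here. A further probe set that lists Il2 together with another gene was left out. The 4 measured genes were part of 18193 genes with a probe set and of 13983 genes tested.

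CD4+ T cells in primary culture, from mice of the BALB/c strain, were profiled in 4 groups of 2 arrays each. Control cells received the solvent DMSO and no stimulus. The dorsomorphin group received 4 µM of that compound, an inhibitor of BMP type I receptors (BMP stands for bone morphogenetic protein) and of the kinase AMPK. Stimulated cells met antibodies to CD3, bound to the plate, and to CD28, in solution, for 1 h before DMSO was added. The last group had the same stimulus followed by dorsomorphin, and each incubation with dorsomorphin or DMSO lasted 6 h. Age, tissue source and any pooling of animals are not in the labels. Nor do the labels tell whether the arrays of a group stand for different animals or cultures. A p-value here therefore reflects array-to-array spread, possibly technical.

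Naive T cells carry Il7r, whose ligand keeps them alive at rest, together with the Il2rb and Il2rg chains. When the T cell receptor and CD28 are engaged, the transcription factors NFAT, AP-1 and NF-kappaB switch on Il2, and the Il2ra chain turns the receptor into its high-affinity form. The receptor chains signal through the kinases JAK1 and JAK3 to STAT5. FOXO1 maintains Il7r transcription in resting cells, and Gfi1 is a known repressor of Il7r. The study used dorsomorphin to ask what a block of BMP signalling does to T cell activation.

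The promoter windows of Il2, Il2ra and Il7r, the 3 genes with the widest range of signal, are shown because these genes are classic targets of the factors just named. Each window runs from 250 bases before to 50 bases after a RefSeq start site (build GRCm38.p6), in the direction of transcription. Capitals mark every match, on either strand, to 5 short motifs: GGAAA (the NFAT core), TGANTCA (AP-1), TTCNNNGAA (STAT5), GTAAACA (FOXO) and CCGGAAG (ETS factors). No window for Il2rb was in the sequence table. The Il2 window lies at chr3:37125905-37126204 on the minus strand, the Il2ra window at chr2:11642542-11642841 on the plus strand and the Il7r window at chr15:9529827-9530126 on the minus strand.
Il2: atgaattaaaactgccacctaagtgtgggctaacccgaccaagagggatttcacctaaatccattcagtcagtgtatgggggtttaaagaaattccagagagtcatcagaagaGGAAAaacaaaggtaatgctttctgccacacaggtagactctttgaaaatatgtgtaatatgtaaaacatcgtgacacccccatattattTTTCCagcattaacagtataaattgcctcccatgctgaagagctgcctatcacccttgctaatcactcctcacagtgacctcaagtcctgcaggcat
Il2ra: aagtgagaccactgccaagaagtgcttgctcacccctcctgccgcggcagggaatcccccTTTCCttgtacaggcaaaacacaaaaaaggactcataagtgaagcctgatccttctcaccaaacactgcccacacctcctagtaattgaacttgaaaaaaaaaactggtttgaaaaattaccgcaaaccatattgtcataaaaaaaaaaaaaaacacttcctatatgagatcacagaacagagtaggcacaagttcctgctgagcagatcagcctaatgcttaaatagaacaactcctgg
Il7r: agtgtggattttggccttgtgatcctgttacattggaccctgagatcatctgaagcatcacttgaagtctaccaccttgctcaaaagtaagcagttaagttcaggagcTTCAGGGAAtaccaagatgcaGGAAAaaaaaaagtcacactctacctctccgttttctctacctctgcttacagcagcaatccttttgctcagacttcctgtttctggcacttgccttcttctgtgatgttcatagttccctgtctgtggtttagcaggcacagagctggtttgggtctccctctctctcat

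The Il2 window held 2 matches to the NFAT core, from -137 to -133 on the coding strand and from -47 to -43 on the opposite strand. The Il2ra window held 1, from -190 to -186 on the opposite strand, and the Il7r window held 1, from -121 to -117 on the coding strand. The Il7r window also held 1 match to the STAT5 motif, TTCAGGGAA, from -142 to -134. Exact matches to the AP-1, FOXO and ETS motifs numbered 0 in these 3 windows. Each motif was searched in 1 fixed spelling, and no NF-kappaB motif was searched. A count of 0 therefore does not show that a window lacks sites for these factors, which can bind other spellings. Of 32851 promoter windows in the table, 61.3% held the NFAT core, 7.81% the AP-1 motif, 8.30% the STAT5 motif, 3.65% the FOXO motif and 8.86% the ETS motif. The NFAT core is thus common to most windows, and the matches are a description of letters only.

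**Figure D1:**
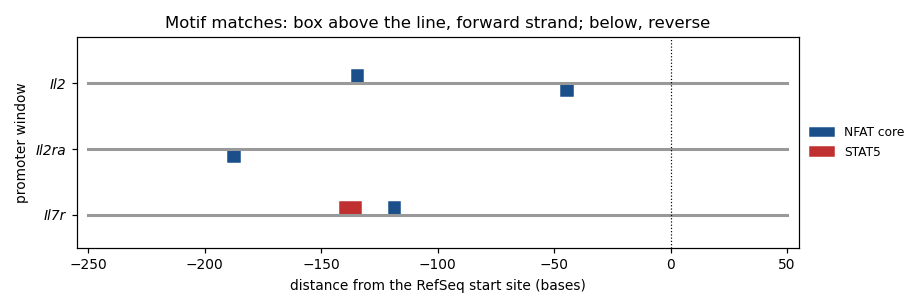
Positions of motif matches in the promoter windows of Il2, Il2ra and Il7r, in bases from the RefSeq start site, with boxes above the line on the coding strand and below it on the opposite strand. The Il2 window has 2 NFAT core matches, the Il2ra window 1, and the Il7r window 1 beside a STAT5 match.

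Il2 was the most variable of the 4 genes, and its signal is given as log2 of the deposited intensity. The gene spans chr3:37120713-37125954 (GRCm38.p6). Control arrays read 4.93 and 6.34, dorsomorphin arrays 4.52 and 6.24, stimulated arrays 12.65 and 14.18, and arrays with both treatments 4.23 and 6.55. Both stimulated arrays lay far above the other 6, whose values overlapped between all 3 groups. The working floor, the 40th percentile of all values on all arrays, was log2 5.22, and replicate 1 of each of these 3 groups fell under it. Replicate 2 read higher than replicate 1 in each of the 4 groups, by 1.40 to 2.32.

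Il2ra encodes the alpha chain, CD25, and spans chr2:11642792-11693194. On its brightest probe set the control arrays read 7.63 and 7.03, dorsomorphin arrays 5.73 and 6.19, stimulated arrays 12.08 and 12.30, and arrays with both treatments 5.77 and 8.33. The stimulated arrays stood above all others, and the 2 arrays with both treatments differed by 2.56 and spanned the control values. The second probe set read 6.64 and 5.60 in control cells, 5.76 and 6.30 with dorsomorphin, 11.25 and 11.57 after stimulation, and 6.65 and 8.82 with both treatments. It gave the same top group, while the lower array with both treatments was level with the higher control array.

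Il2rb encodes the beta chain, CD122, which the interleukin-2 and interleukin-15 receptors share, and it spans chr15:78479256-78511621. Its brightest probe set read 9.08 and 8.67 in control cells, 8.97 and 8.34 with dorsomorphin, 10.02 and 9.33 after stimulation, and 8.88 and 9.62 with both treatments. The stimulated arrays lay above the control arrays but overlapped those with both treatments. The second probe set read 7.71 and 6.93, 6.47 and 7.12, 8.77 and 7.76, and 7.49 and 8.31 in the same order of groups, and the order of its group means was the same.

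Il7r encodes the alpha chain of the interleukin-7 receptor, CD127, and spans chr15:9506159-9529941. On its brightest probe set control arrays read 14.67 and 14.82, dorsomorphin arrays 13.84 and 13.47, stimulated arrays 11.46 and 8.98, and arrays with both treatments 13.71 and 11.93. Its direction was opposite to that of Il2: the control arrays were highest and the stimulated arrays lowest, with no overlap of the latter with any other group. The second probe set read 13.12 and 13.00, 11.91 and 11.01, 9.25 and 6.59, and 11.74 and 9.27 in the same order of groups. There the higher stimulated array nearly met the lower array with both treatments.

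**Figure D2:**
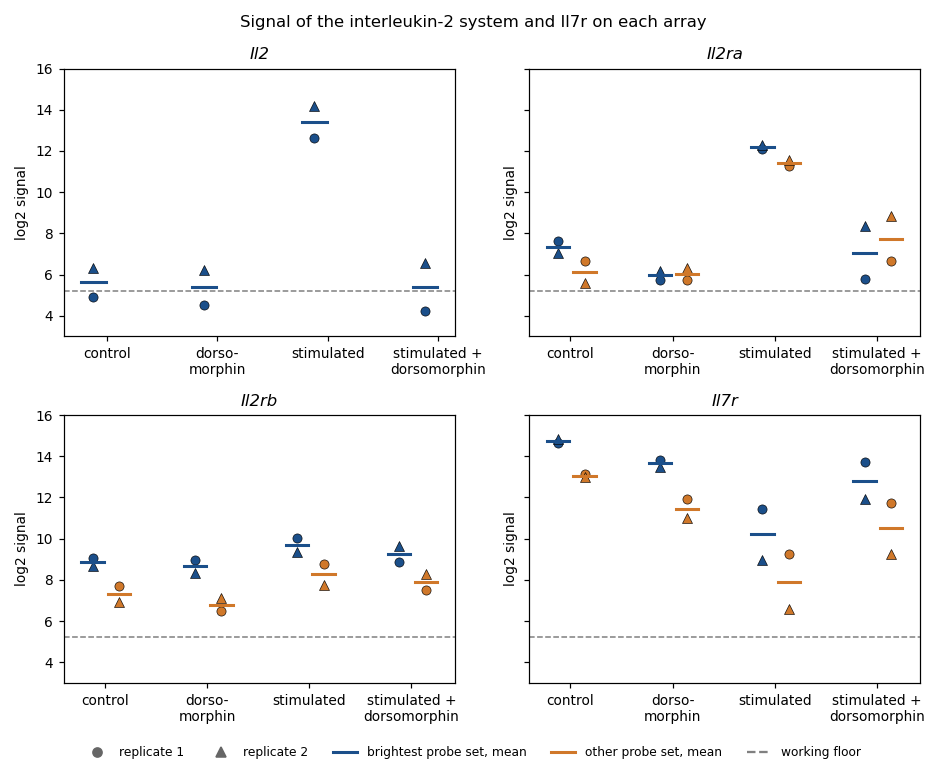
Log2 signal of the 4 measured genes on each of the 8 arrays, by group, with circles for replicate 1, triangles for replicate 2 and a bar at the mean of 2 arrays. The stimulated arrays of Il2 (12.65 and 14.18) and Il2ra (12.08 and 12.30) stand above the other 6 on the brightest probe set, those of Il7r (11.46 and 8.98) stand below, and the groups of Il2rb lie close together.

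In stimulated cells without the inhibitor, 2 of the 4 measured genes rose, Il7r fell and Il2rb did not pass the test, limma's moderated test over all 13983 genes with Benjamini-Hochberg adjustment and a threshold of 0.05. Of all genes tested 23.4% passed, with 8.98% higher and 14.4% lower. After median centring 51.3% of the calls were higher and after cyclic loess 48.8%, against 38.4% here. Il2 was 219-fold higher, a log2 fold of 7.78 ± 1.05 (SE, 2 arrays per group, limma adjusted p = 0.0113), with a 95% confidence interval from 5.19 to 10.37. Il2ra rose 29.1-fold (4.86 ± 0.80, limma adjusted p = 0.0151), and by 5.29 ± 0.75 on its second probe set. Il7r fell by 4.52 ± 0.92 log2 units (limma adjusted p = 0.0226), and by 5.14 ± 1.11 on its second probe set.

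Il2rb had a log2 fold of 0.80 ± 0.42 (limma adjusted p = 0.218), with an interval from -0.22 to 1.82, so a 2-fold rise is within the range these arrays allow. Its second probe set gave 0.95 ± 0.52 (adjusted p = 0.240). The 3 calls rested on all 4 arrays of the comparison other than stimulated replicate 1. Without control replicate 1 or 2, or without stimulated replicate 2, the limma adjusted p was 0.0541 to 0.0784 for Il2, 0.0706 to 0.0946 for Il2ra and 0.0723 to 0.112 for Il7r, with the same direction.

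In stimulated cells, adding dorsomorphin was followed by lower Il2 and Il2ra. Of the 4 genes, 2 fell, beside 12.4% of all genes tested, and 0 rose, beside 9.71% (22.1% in both directions). Il2 fell by 8.02 ± 1.05 log2 units (n = 2 per group, limma adjusted p = 0.00817), and Il2ra fell by 5.14 ± 0.80 (adjusted p = 0.0117). The second Il2ra probe set fell by 3.68 ± 0.75 (adjusted p = 0.0225). Il7r differed by 2.60 ± 0.92 and missed the threshold (limma adjusted p = 0.0966), with an interval from 0.35 to 4.85. Its arrays did not overlap between the 2 groups. With 2 arrays per group a lack of overlap is a description and no test. The share of all genes without overlap was not counted, here or in the comparisons below. Il2rb differed by -0.43 ± 0.42 (adjusted p = 0.514), with an interval from -1.45 to 0.59.

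Without stimulated replicate 2 the adjusted p of Il2ra in this comparison was 0.0590. Without stimulated replicate 1 the fold of Il7r was 3.84 with an adjusted p of 0.0330. A fit of only these 4 arrays left 0 genes past the limma threshold, with 4040 at an unadjusted p under 0.05. In it the adjusted p was 0.0605 for Il2 and 0.0686 for Il2ra.

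Dorsomorphin alone, in cells that were not stimulated, called 0 of the 4 genes by limma at the adjusted threshold. Of all genes tested 13.1% passed (1.92% higher and 11.1% lower). At an unadjusted p under 0.05 the count was 0 of the 4, beside 4389 of all 13983 genes. With only 4 genes, these counts of 0 do not set the members apart from all genes. Of the calls over all genes 14.7% were higher, against 24.3% with median centring, 24.1% with quantile normalization and 20.1% with cyclic loess. Il2ra had a log2 fold of -1.37 ± 0.80 (limma adjusted p = 0.304), with both dorsomorphin arrays under both control arrays. On its second probe set the value was -0.09 ± 0.75 and the arrays overlapped. Il7r had -1.09 ± 0.92 (adjusted p = 0.476) and -1.60 ± 1.11 on its second probe set, again with no overlap. The intervals were -3.35 to 0.60 for Il2ra and -3.33 to 1.16 for Il7r, wide enough to include both no difference and a change of several-fold. Il2 (-0.25 ± 1.05) and Il2rb (-0.22 ± 0.42) had overlapping arrays.

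With dorsomorphin present, stimulated and unstimulated cells were compared directly. Here limma called 0 of the 4 genes and 0 of all 13983 genes (0%), with 539 at an unadjusted p under 0.05. Among the other settings the count was also 0, except for 2 genes with a 60th percentile filter. Il2 differed by 0.01 ± 1.05 (interval -2.58 to 2.59), Il2ra by 1.10 ± 0.80 (-0.88 to 3.07), Il2rb by 0.59 ± 0.42 (-0.43 to 1.61) and Il7r by -0.84 ± 0.92 (-3.09 to 1.41), each with an adjusted p of 1.00. These intervals do not show that the stimulus had no effect under the inhibitor. On both probe sets of Il2ra, replicate 2 with both treatments (8.33 and 8.82) exceeded every unstimulated array. Replicate 1 lay below both control arrays on the brightest probe set (5.77) and level with the higher control array on the second (6.65).

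The difference between the responses to stimulation with and without dorsomorphin, the interaction, called 0 of the 4 genes by limma and 0.0858% of all genes tested, 12 in number (0.0358% positive and 0.0501% negative). Of these 12, 41.7% were positive, against 39.1% of 46 with cyclic loess and 50.8% of 518 with quantile normalization. The share was 63.8% of 2036 with trend and robust fitting, 65.9% of 1867 with the 60th percentile filter and 82.3% of 803 without stimulated replicate 1. Its size was -7.77 ± 1.49 log2 units for Il2 (limma adjusted p = 0.0678, unadjusted p = 0.00209), -3.76 ± 1.14 for Il2ra (adjusted p = 0.114, unadjusted p = 0.0166), 3.69 ± 1.29 for Il7r (adjusted p = 0.147, unadjusted p = 0.0298) and -0.21 ± 0.59 for Il2rb (adjusted p = 0.854). The first 3 therefore had intervals that did not reach 0 before adjustment and missed the threshold after it. With a trend in the variance and a robust fit the adjusted p was 0.00903 for Il2 and 0.0342 for Il2ra, and 2036 genes passed.

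**Figure D3:**
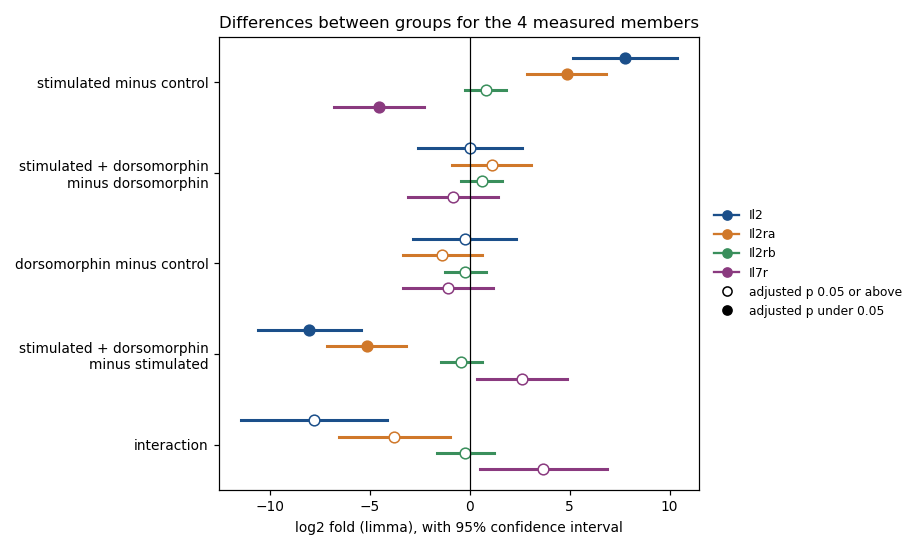
Log2 folds of the 4 measured genes in 5 comparisons, with lines for the 95% confidence interval from limma and filled points for an adjusted p under 0.05. Filled points appear for Il2, Il2ra and Il7r with stimulation alone and for Il2 and Il2ra with dorsomorphin in stimulated cells.

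The order of the group means was the same for Il2 and the brightest probe set of Il2ra: dorsomorphin lowest, then both treatments, then control, then stimulated. For Il2 these means were 5.38 ± 1.21 (SD, n = 2), 5.39 ± 1.64, 5.63 ± 0.99 and 13.41 ± 1.08, and for Il2ra 5.96 ± 0.32, 7.05 ± 1.81, 7.33 ± 0.43 and 12.19 ± 0.15. On these 2 probe sets only the step from control to stimulated passed the limma threshold between neighbours, and the arrays of the lower neighbours overlapped. The second Il2ra probe set gave another order, with both treatments above control. Its means were 6.03 with dorsomorphin, 6.12 in control cells, 7.74 with both treatments and 11.41 after stimulation. For Il2rb the means ran from 8.66 ± 0.45 with dorsomorphin through 8.87 ± 0.29 in control cells and 9.25 ± 0.52 with both treatments to 9.68 ± 0.49 after stimulation, and every pair of neighbours overlapped. For Il7r they ran from 10.22 ± 1.75 after stimulation through 12.82 ± 1.25 with both treatments and 13.66 ± 0.26 with dorsomorphin to 14.74 ± 0.10 in control cells. No step between neighbours passed for Il7r. The first and the last had no overlap, which with 2 arrays per group is a description only.

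Cells with both treatments were also set against control cells. Of all genes 7.22% passed in this comparison (0.915% higher and 6.31% lower), and of the 4 genes 0 did, by limma at the adjusted threshold. At an unadjusted p under 0.05 the count was also 0 of the 4, beside 3691 of all 13983 genes. The differences were -0.24 ± 1.05 for Il2, -0.28 ± 0.80 for Il2ra, 0.38 ± 0.42 for Il2rb and -1.92 ± 0.92 for Il7r. The second Il2ra probe set had the opposite sign, at 1.62 ± 0.75 (limma adjusted p = 0.237). For Il7r the arrays did not overlap, and the interval ran from -4.17 to 0.33.

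The remaining pair, stimulated cells without the inhibitor against unstimulated cells with it, spans both treatments. Here 27.6% of all genes passed, 16% higher and 11.6% lower. Il2 rose by 8.03 ± 1.05 (limma adjusted p = 0.00550) and Il2ra by 6.23 ± 0.80 (adjusted p = 0.00546). Il7r fell by 3.44 ± 0.92 (adjusted p = 0.0395), but its second probe set (-3.54 ± 1.11) did not pass, with an adjusted p of 0.0625. Leaving out either control array, either dorsomorphin array or stimulated replicate 2 ended the Il7r call, at 0.0719 to 0.139. It also ended with cyclic loess (0.0525), with no filter (0.0616) and with only the 4 arrays compared (0.0827). Il2rb differed by 1.02 ± 0.42 (adjusted p = 0.125) with no overlap of arrays.

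The arrays of each group correlated at 0.937 to 0.952 across genes, which are not independent replicates. For the CD4+ T cell label 11 measured genes of T cell identity were read, of which 0 had both arrays of any group under the floor. CD8 T cells share most of these genes, the CD3 chains included, so the list does not check the CD4 part of the label. The summed linear signal of the 11 genes ranged from 85395 to 87777 on control arrays, 29595 to 41664 with dorsomorphin, 66223 to 71591 after stimulation and 44203 to 48651 with both treatments. Of these, 6 of 11 fell with dorsomorphin alone, beside 11.1% of all genes tested, among them Cd3g, a chain of the T cell receptor complex (-3.51 ± 0.35), and its partner Cd3e (-2.22 ± 0.46, limma adjusted p = 0.0354). The coreceptor gene Cd4 differed by -2.20 ± 0.61 and did not pass (adjusted p = 0.0685). With dorsomorphin in stimulated cells 3 of the 11 fell, beside 12.4% of all genes, and 1 rose, beside 9.71%. With stimulation 2 fell, beside 14.4%, and 1 rose, beside 8.98%. In bulk RNA, fewer cells of a type and less RNA per cell cannot be told apart. The part of these shifts in the values of the 4 genes was not tested.

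Markers of cells that carry these receptors moved as well. Regulatory T cells express Il2ra at rest, and the summed signal of their 9 measured markers, Il2ra included, was 18152 to 20528 on control arrays, 10049 to 11840 with dorsomorphin, 28297 to 31568 after stimulation and 13063 to 14476 with both treatments. In the 9, 4 fell with dorsomorphin alone, beside 11.1% of all genes tested. In stimulated cells 4 fell with dorsomorphin, Il2ra itself among them, beside 12.4%. Foxp3, their lineage factor, read 9.14 and 8.82 in control cells, 7.36 and 7.17 with dorsomorphin, 9.77 and 8.63 after stimulation and 7.88 and 8.36 with both treatments. Its log2 fold with stimulation was 0.22 ± 0.43 (limma adjusted p = 0.747). In the 9 markers 2 rose with stimulation, Il2ra itself and Ikzf2 (0.90 ± 0.21, adjusted p = 0.0302), and 2 fell, Itgae (-1.68 ± 0.32) and Nrp1 (-1.54 ± 0.30). Gpr83 (2.04 ± 0.67, adjusted p = 0.0768) did not pass.

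CD8 T cells and natural killer cells carry Il2rb. Their 11 measured markers summed to 2530 to 3053 on control arrays, 842 to 1205 with dorsomorphin, 1436 to 1947 after stimulation and 984 to 1329 with both treatments. Levels differed within the list. On control arrays Klrd1 read 10.22 and 9.93, Gzma 9.06 and 9.07, Cd8b1 8.74 and 8.19 and Prf1 7.83 and 7.12, while Cd8a read 5.91 and 5.76 and Ncr1 5.32 and 3.92. Klra8 lay under the floor on every array. Sums for the 10 measured B cell markers, lay between 373 and 846. The 17 myeloid and dendritic cell markers summed to 18196 to 26830 on control arrays and 7987 to 11646 on the other 6. The part of these cells in the results was not tested.

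The counts in the 6 gene lists that follow stand beside these shares of all 13983 genes. With stimulation 8.98% rose and 14.4% fell, with dorsomorphin alone 1.92% and 11.1%, and with dorsomorphin in stimulated cells 9.71% and 12.4%. The lists were chosen with earlier results of these data known. List counts or medians unlike those of all genes are therefore a description and not independent support.

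Other cytokines and receptors that use the gamma chain were followed as a list of 11 genes, of which 8 were tested and Il7, Il9r and Tslp lay below the floor. With stimulation, 4 of the 8 rose and 0 fell, with a list median of 1.78 beside -0.27 for all genes tested. Il4, the cytokine of type 2 helper cells, rose by 5.86 ± 1.09 log2 units. Il15ra, whose product pairs with the Il2rb chain to bind interleukin-15, rose by 2.75 ± 0.34. Il21 rose at least 8.50-fold and Il9 at least 2.27-fold, given as bounds because both control arrays lay under the floor. These 2 genes passed the filter only through the stimulated arrays, so their calls support nothing about the list. The count of 4 and the list median include them and share that limit. Il9 did not pass with values raised to the floor. With dorsomorphin in stimulated cells Il4 (-6.12 ± 1.09) and Il15ra (-3.07 ± 0.34) fell. Il21 was at least 8.50-fold lower and Il9 at least 2.27-fold lower there, with the same limit of the filter. Il9 again did not pass with values raised to the floor.

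The receptors Il4ra and Il21r did not pass in any of the 4 contrasts given here. Il4ra differed by -0.73 ± 0.53 with stimulation and by 0.84 ± 0.53 with dorsomorphin in stimulated cells, and Il21r by 0.81 ± 0.36 and -1.08 ± 0.36. In unstimulated cells dorsomorphin gave 0.56 ± 0.53 for Il4ra and -0.24 ± 0.36 for Il21r, and the interactions were 0.28 ± 0.76 and -0.85 ± 0.50.

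The signalling arm below the receptor was followed with 17 genes, of which 15 were measured. With stimulation 0 rose and 4 fell, with a list median of -0.30 beside -0.27 for all genes. Jak1, the kinase bound to the beta chain and to the Il7r chain, read 14.35 and 14.21 in control cells and 12.87 and 12.26 after stimulation, and it fell by 1.71 ± 0.29 (limma adjusted p = 0.0152). Stat5b fell by 1.96 ± 0.40. Pik3r1, a regulatory subunit of PI3-kinase, fell by 2.26 ± 0.41. Jak3, the kinase of the gamma chain, differed by 0.00 ± 0.53 and Stat5a by 0.76 ± 0.50, and neither passed.

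In stimulated cells, 3 of the 15 rose with dorsomorphin and 0 fell, beside 9.71% and 12.4% of all genes, with a list median of 0.22 beside 0.07. The 3 were Stat5b (2.12 ± 0.40), Jak1 (1.50 ± 0.29) and Stat3 (1.30 ± 0.32). Jak3 differed by -1.29 ± 0.53 and Stat5a by -0.92 ± 0.50. With dorsomorphin alone Sos1, an exchange factor for RAS, was the 1 gene that fell (-1.06 ± 0.23), but the mean of its probe sets gave 1.64. Jak3 had -1.77 ± 0.53 there (adjusted p = 0.0821).

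Genes that interleukin-2 and STAT5 are known to regulate, up or down, or that feed back on the receptor, numbered 20, all of them tested. With stimulation 10 rose and 0 fell, with a median of 1.85 beside -0.27 for all genes. Cish, a STAT5 target that dampens cytokine receptors, read 9.12 and 9.64 in control cells, 9.67 and 10.43 with dorsomorphin, 13.05 and 13.22 after stimulation and 9.97 and 11.86 with both treatments. The stimulated arrays stood above the others, and the rise was 3.76 ± 0.65 (limma adjusted p = 0.0160). Socs1, a feedback inhibitor of JAK kinases, rose by 3.09 ± 0.78, the granzyme gene Gzmb by 4.78 ± 0.39 and Ifng, the interferon gamma gene, by 6.14 ± 0.52. The lymphotoxin gene Lta rose by 3.87 ± 0.71. Socs2 had 1.96 ± 0.56 and did not pass (adjusted p = 0.0546). T cell receptor signals also induce several of these genes, so the list does not separate the 2 inputs.

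In stimulated cells, 8 of the 20 fell with dorsomorphin and 0 rose, with a median of -1.65 beside 0.07. Ifng fell by 6.39 ± 0.52 and Gzmb fell by 4.23 ± 0.39, as did Myc, a driver of growth (-4.89 ± 0.21). Cish (-2.22 ± 0.65, adjusted p = 0.0587) and Socs1 (-2.34 ± 0.78, adjusted p = 0.0831) did not pass. With dorsomorphin alone 4 fell and 0 rose, with a median of -0.62 beside -0.24. Bcl2, the survival gene downstream of interleukin-7, fell by 2.96 ± 0.62, from 10.58 and 10.47 to 8.12 and 7.01, and it did not pass with the mean of its probe sets. Ccnd2, a cyclin of the G1 phase, fell by 2.75 ± 0.47, and Prdm1, a repressor of Il2, fell by 1.66 ± 0.33. In stimulated cells Bcl2 fell by 2.28 ± 0.62 with dorsomorphin (limma adjusted p = 0.0486), close to the threshold. That call ended with no filter, the mean of all probe sets, the replicate block and a fit of only the 4 arrays compared.

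Genes listed as activators of the Il2 promoter, with the signalling genes behind them, numbered 23, with 20 measured. A place in this list, that of Egr2 included, does not show that a gene activates Il2, and this was not tested. With stimulation 6 rose and 2 fell, with a median of 0.18 beside -0.27. Egr2, a zinc finger factor induced by the T cell receptor, rose by 6.20 ± 0.30 and its relative Egr1 by 3.57 ± 0.55. Rel, the NF-kappaB subunit c-Rel, rose by 2.09 ± 0.37 and Nfatc1 by 1.80 ± 0.35. Ppp3ca, the gene of a catalytic subunit of calcineurin, fell by 2.26 ± 0.32. The AP-1 genes Fos (1.22 ± 0.89) and Jun (-0.46 ± 1.17) did not pass.

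With dorsomorphin in stimulated cells 5 of these 20 fell and 4 rose, with a median of -0.44 beside 0.07. Egr2 fell by 5.45 ± 0.30 and Egr1 fell by 3.51 ± 0.55. Malt1, a scaffold protease on the way to NF-kappaB, fell by 2.52 ± 0.22. Rel differed by -0.52 ± 0.37 (adjusted p = 0.366) and Nfatc1 by -1.18 ± 0.35 (adjusted p = 0.0641). In unstimulated cells Rel rose with dorsomorphin by 1.68 ± 0.37 (adjusted p = 0.0402). There Nfatc2 fell by 1.90 ± 0.29. Prkcq, the protein kinase C of the T cell receptor synapse, fell by 1.47 ± 0.31. The mean of the Nfatc2 probe sets gave 0.53 instead.

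Genes listed as repressors of Il2 numbered 15, all measured. With stimulation 2 rose and 7 fell, with a median of -0.85 beside -0.27. Whether each of them, Creb1 and Nfatc2ip included, represses Il2 was not tested. Zeb1, a zinc finger repressor of Il2, read 11.68 and 11.76 in control cells, 13.20 and 13.99 with dorsomorphin, 10.35 and 9.69 after stimulation, and 12.93 and 13.31 with both treatments. All 4 arrays with dorsomorphin lay above the 4 without, and the share of all genes with this order was not counted. Zeb1 fell with stimulation by 1.70 ± 0.37, rose with dorsomorphin alone by 1.88 ± 0.37 (limma adjusted p = 0.0314) and rose with dorsomorphin in stimulated cells by 3.10 ± 0.37 (adjusted p = 0.00719).

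Over the list 2 of the 15 rose with dorsomorphin alone, 1 fell (Prdm1, -1.66 ± 0.33) and 12 did not pass, with a median of -0.33 beside -0.24. In stimulated cells 3 rose with dorsomorphin, 1 fell and 11 did not pass, with a median of 0.14 beside 0.07.

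Crem, whose short products repress Il2, also had all 4 arrays with dorsomorphin above the 4 without, at 14.05 and 14.53 alone and 13.80 and 13.88 with the stimulus. It read 11.86 and 11.86 in control cells and 11.74 and 10.29 after stimulation. Crem rose with dorsomorphin by 2.43 ± 0.48 in unstimulated cells (adjusted p = 0.0315) and by 2.82 ± 0.48 in stimulated cells (adjusted p = 0.0141). With the mean of all probe sets both Crem calls ended, as did the Zeb1 call in unstimulated cells. Tob1, an antiproliferative gene that represses Il2, fell by 2.68 ± 0.56 with stimulation and rose by 2.11 ± 0.56 with dorsomorphin in stimulated cells, and both calls ended with the mean of all probe sets. With stimulation Klf2, a factor of quiescent T cells, fell by 2.53 ± 0.57, and the corepressor gene Tle5 fell by 2.47 ± 0.61. Ikzf1, the Ikaros gene, had 0.19 ± 0.22 and -0.48 ± 0.22 in these contrasts and did not pass.

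Regulators of Il7r and the homing and survival genes that FOXO1 and KLF2 maintain formed a list of 20, with 18 measured. With stimulation 2 rose and 11 fell, with a median of -1.45 beside -0.27. Foxo1 read 12.04 and 11.79 in control cells and 10.77 and 9.87 after stimulation, and fell by 1.60 ± 0.35 (limma adjusted p = 0.0269). Gfi1, a known repressor of Il7r, read 8.58 and 8.48 in control cells, 7.93 and 7.50 with dorsomorphin, 12.46 and 13.04 after stimulation and 7.58 and 8.42 with both treatments. It rose by 4.22 ± 0.38 with stimulation (adjusted p = 0.00800). Pik3ip1, which restrains PI3-kinase, fell by 4.96 ± 0.93. S1pr1, the receptor for exit from lymph nodes, fell by 4.38 ± 1.11, and Ets1, a lymphocyte transcription factor, fell by 1.37 ± 0.24.

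In stimulated cells, 6 of the 18 rose with dorsomorphin and 2 fell, with a median of 1.04 beside 0.07. Gfi1 fell by 4.74 ± 0.38 (adjusted p = 0.00576), Foxo1 rose by 1.71 ± 0.35 and Tsc22d3, a glucocorticoid and FOXO target, by 4.49 ± 0.85. In unstimulated cells 2 of the 18 fell, Bcl2 and Klf3 (-2.07 ± 0.43), and 0 rose, a share close to the 11.1% of all genes that fell. Foxo1 had -0.12 ± 0.35 and Gfi1 -0.81 ± 0.38 and did not pass.

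**Figure D4:**
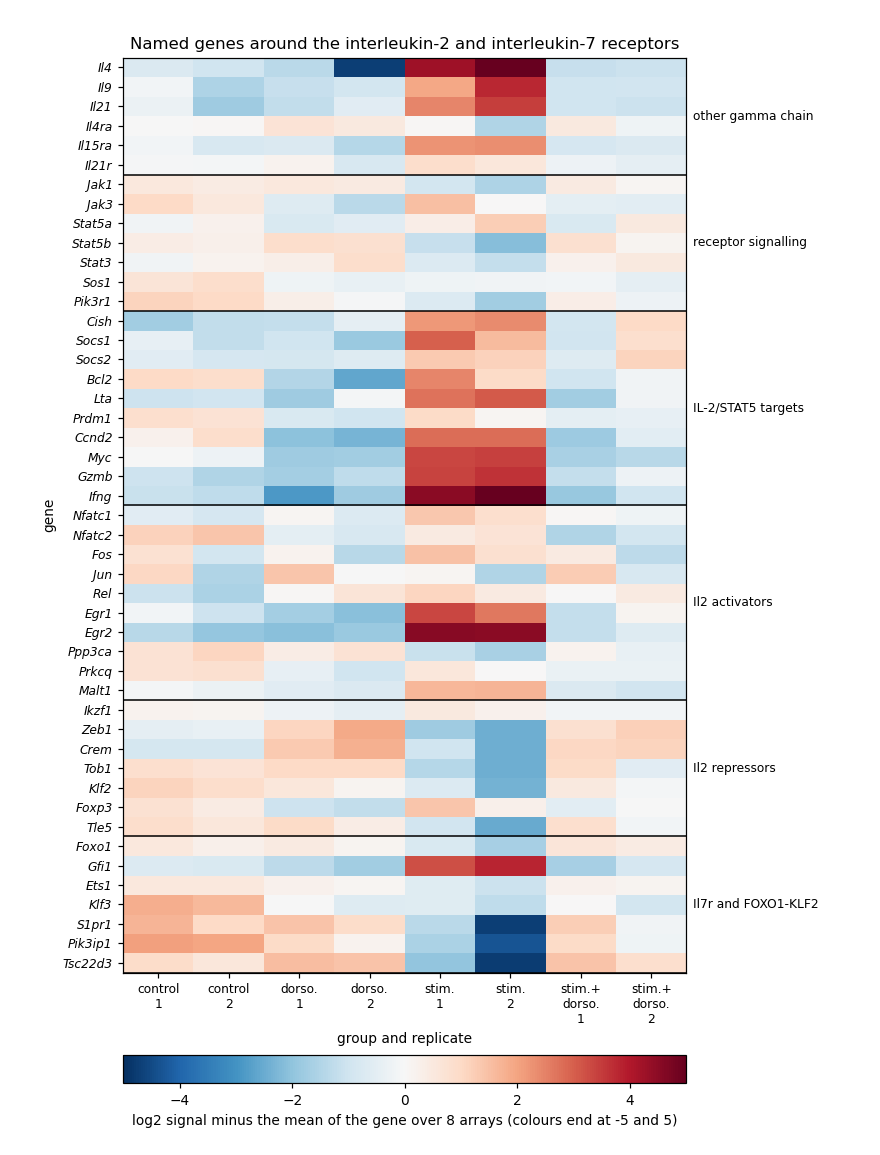
Log2 signal of the named genes of 6 lists on each array, minus the mean of each gene over 8 arrays, with red above and blue below that mean and colours ending at -5 and 5. The stimulated arrays stand apart in most rows, which is partly set by the choice of genes with large changes and no overlap of arrays. Zeb1 and Crem are higher on all 4 arrays with dorsomorphin than on the 4 without, an order whose share over all genes was not counted.

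The calls of these lists rested on few arrays. With stimulation alone, leaving out either control array ended all 26 calls of named genes, and leaving out stimulated replicate 2 ended 20 of the 26. With dorsomorphin alone, leaving out either control array or dorsomorphin replicate 2 ended all 11, and leaving out either array with both treatments ended 8. With dorsomorphin in stimulated cells, 12 of 21 ended without replicate 1 of both treatments, 9 without stimulated replicate 2 and 8 without replicate 2 of both treatments. With no filter, 9 of the 11 calls with dorsomorphin alone ended, 4 of the 26 with stimulation and 4 of the 21 with dorsomorphin in stimulated cells. A fit of only the 4 arrays compared ended 7 of 11, 12 of 26 and all 21. The mean of all probe sets ended 6 of 11, 1 of 26 and 3 of 21. Median centring ended the calls of Ets1 and Zeb1 with stimulation, of Ets1 and Stat3 with dorsomorphin in stimulated cells, and of Ccnd2, Nfatc2, Prdm1, Prkcq and Sos1 with dorsomorphin alone. In stimulated cells with dorsomorphin, cyclic loess ended those of Ets1 and Tob1, and quantile normalization that of Tob1. Over all genes, 1825 passed with dorsomorphin alone, 0 without either control array and 210 without dorsomorphin replicate 2.

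Genes whose pattern over the 8 arrays was closest to each member were found by the root-mean-square difference of log2 signals after each gene was centred on its own mean. This is a description over 8 arrays that share 4 groups. For Il2 the closest were Ccl1, a chemokine gene (difference 0.80, r = 0.974), Ifng (0.90, r = 0.981), Npas4 (1.04), Hivep3 (1.09) and Irf4 (1.13), beside a spread of Il2 about its own mean of 3.55. For Il2ra they were Irf8 (0.48, r = 0.987), Smyd2 (0.48), Irf4 (0.55, r = 0.994), the spermidine synthase gene Srm (0.60) and the hexokinase gene Hk2 (0.61), beside a spread of 2.49. Irf4, a transcription factor of activated lymphocytes, stood in both sets.

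For Il7r the closest were Pik3ip1 (0.35, r = 0.986), L1cam (0.35), Ypel3 (0.39), Selenop (0.41) and Card6 (0.43, r = 0.991), beside a spread of 1.84. Pik3ip1 is also in the list of Il7r regulators and homing genes. For Il2rb the closest were Ppp3cc (0.14), Stard4 (0.17), Dusp22 (0.21), Serping1 (0.24) and Ikzf3 (0.24), beside a spread of 0.50.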

How the data were processed

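Biotin-labelled total RNA of 8 samples was measured on Affymetrix arrays, per the labels' protocols. The table deposited by the authors holds a linear intensity for each of 45101 probe sets. The submitters' processing notes name RMA and the affy package without versions, but the deposited values are linear and the mean of each array after trimming 2% at each end is 500, so the step that made them is unknown. Median signals ranged from 45.4 to 74.5. No detection calls were used, and the number of arrays limits the precision.

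Log2 of the values was taken with no further normalization. A single symbol was given for 34945 probe sets, several for 932 and none for 9160, and 64 were controls. Symbols were updated by Entrez identifier, which matched 34741 and changed 0. For each gene the probe set brightest on average was used, and tested where that exceeded log2 5.22 (signal 37.3) on at least 2 arrays. One linear model over all 8 arrays was fitted with limma 3.58.1 in R 4.3.3 (4 residual and 1.90 prior degrees of freedom), two-sided, and checked on simulated data. The interaction is the response to stimulation with dorsomorphin minus that without. If neither array of a group exceeded the floor, a change is given as a bound, from the brighter mean against the mean of the higher of floor and value.

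The members and lists were chosen with earlier results of these data known. Named genes were the 3 largest changes past the threshold per list and comparison with no overlap of arrays (the threshold alone for the interaction), 24 fixed genes and the 5 closest patterns per member. Values of other marker genes are examples from the marker lists, chosen after their values were seen. Protein sequences were not used here.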

Additional observations from a re-analysis of the deposited data

Results flagged for a closer look

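The response to stimulation differed with and without dorsomorphin for 2 genes of the lists around Il2, by the interaction term in limma. For Egr2 the interaction was -5.14 ± 0.43 log2 units (limma adjusted p = 0.0492), with signals of 13.16 and 13.13 after stimulation and 7.41 and 7.97 with both treatments. For Myc it was -3.26 ± 0.30 (limma adjusted p = 0.0492), with 13.48 and 13.55 after stimulation and 8.53 and 8.73 with both treatments. Over 18 alternatives the adjusted p ran from 0.00146 to 0.221 for both, with the same sign, and 7 of the 18 passed the threshold for each gene. Both calls ended with median centring, no filter, the mean of all probe sets and the replicate block, and without any 1 array other than stimulated replicate 1.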

How the results depend on the processing

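Precision was limited by 2 arrays per group, and no detection calls set signal against background. Over the alternatives run, the folds of the 4 members in the 5 main comparisons kept their direction wherever they were called. With only the 4 arrays of a comparison, 3 calls ended: Il7r with stimulation (-4.52, limma adjusted p = 0.0595) and, with dorsomorphin in stimulated cells, Il2 (-8.02, 0.0605) and Il2ra (-5.14, 0.0686). The 60th percentile filter brought Il7r with dorsomorphin in stimulated cells (2.60, 0.0447) and the interactions of Il2 (-7.77, 0.0197) and Il2ra (-3.76, 0.0481) past the threshold. The interaction of Il2 also passed with an offset of 16 (-7.30, 0.0258), with values raised to the floor (-7.48, 0.0132) and with trend and robust fitting (-7.77, 0.00903), as did that of Il2ra with the last (-3.76, 0.0342). Over the settings that leave out 1 array, the folds with stimulation ran from 7.01 to 8.54 for Il2, 4.56 to 5.17 for Il2ra and -5.76 to -3.29 for Il7r, and with dorsomorphin in stimulated cells from -6.42 to -3.86 for Il2ra and 1.36 to 3.84 for Il7r. A lone array left in a group is assumed to vary like the others.

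Counts of genes past the limma threshold moved more. With stimulation, 3269 became 2146 with median centring, 2122 with no filter and 1668 with only the 4 arrays, and ran from 0 to 2940 over the arrays left out. Of its calls 38.4% were higher, against 51.3% with median centring and 48.8% with cyclic loess, and the median fold of all genes moved from -0.27 to 0.11 and -0.04. With dorsomorphin alone, 1825 became 786 with median centring, 927 with no filter, 2968 with the 60th percentile filter, 2992 with values raised to the floor, 1058 with the mean of probe sets, 3103 with trend and robust fitting and 883 with only the 4 arrays, and ran from 0 to 1591. With stimulation under dorsomorphin 0 became 2 with the 60th percentile filter. With dorsomorphin in stimulated cells 3096 became 0 with only the 4 arrays and ran from 1000 to 2648. The interaction count of 12 became 0 with median centring and with no filter, 46 with cyclic loess, 518 with quantile normalization, 1867 with the 60th percentile filter, 910 with the offset, 1709 with values raised to the floor, 3 with the mean of probe sets, 2036 with trend and robust fitting and 0 with the replicate block, and ran from 0 to 803. The counts of 0 had 2840, 3642 and 4477 genes at an unadjusted p under 0.05 with median centring, no filter and the block. The cause of these moves was not tested.

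What a replicate number marks is not in the labels. Deviations of same-numbered arrays correlated at 0.0687 to 0.178 between groups. With the replicate block Il7r with stimulation was -4.52 (adjusted p = 0.0162) and the block changed no call of the 4 members. It ended those of Socs1 with stimulation, Rel with dorsomorphin alone, Bcl2 with dorsomorphin in stimulated cells, and Egr2 and Myc in the interaction. Among the other named genes, 2 values reversed, both with the mean of probe sets and dorsomorphin alone: Nfatc2 (0.53) and Sos1 (1.64).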
